A study of Mus musculus with 6 samples.

Results

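Ribosomal protein mRNAs were followed through 4 libraries of MARIO, an assay that records which RNAs were held near each other in cells. The genes were taken from the names that the deposited files give to RNA fragments: every protein-coding name that starts with Rpl or Rps and a digit, with Rplp0, Rplp1, Rplp2 and Rpsa, leaving out pseudogene names and the Rps6k kinases. This gave 86 names of the 19983 protein-coding names found in the 4 libraries, of which ES-1 and ES indirect each held 86, ES-2 held 85 and MEF held 53. The name rule also takes in paralogs of the core set, namely Rpl3l, Rpl7l1, Rpl10l, Rpl22l1, Rpl36al, Rpl39l, Rps4y2 and Rps27l, and Rps19bp1, which encodes a protein that binds a ribosomal protein and is not itself part of the ribosome. Of the 86 names, 85 are in the GENCODE vM1 annotation of the mouse assembly mm9 (NCBIM37). The other, Rpl41, carries no exon or intron label in the files and enters no share by region.

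In MARIO, RNAs are crosslinked to proteins, the complexes are fixed on beads, a biotin-tagged RNA linker is joined to RNA 5′ ends, and neighbouring ends are ligated, so that 1 read pair reports a first fragment (RNA1), the linker and a second fragment (RNA2). ES-1 and ES-2 are separate assays on E14 mouse embryonic stem (ES) cells of strain 129/Ola, crosslinked with ultraviolet light of 254 nm and cut with RNase I to about 1000 nt. That length is the labels' for both, while the study's methods allow longer pieces for ES-1. rRNA was depleted by the GeneRead kit for ES-2 and by duplex-specific nuclease for ES-1. ES indirect came from the same line after treatment with formaldehyde and EGS, crosslinkers that also link proteins to each other, with sonication to about 1000 nt and the duplex-specific nuclease, and MEF came from C57Bl/6 embryonic fibroblasts after 254 nm light, RNase I cutting to about 300 nt and the GeneRead kit. All these cells were studied without any genetic change named in the labels. ES-1 and ES-2 are the 2 replicates of ES cells, ES indirect and MEF are 1 library each, and no test between groups was made. The p-values below come from read pairs within a library and measure counting error only, as do the 95% Wilson intervals. Nothing in the labels says whether ES-1 and ES-2 came from separate cultures.

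Ribosomal protein genes encode the proteins that assemble with rRNA into the large (Rpl) and small (Rps) ribosomal subunits, and their short mRNAs are among the most abundant of growing cells. Many of them also carry small nucleolar RNAs (snoRNAs) in their introns. Box C/D and box H/ACA snoRNAs are released from the spliced intron and guide 2′-O-methylation and pseudouridylation of rRNA in the nucleolus. The genome holds many processed pseudogenes of these mRNAs, intronless copies that can be almost identical to the spliced transcript.

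Depth and data quality differed between libraries. ES-1 had 3230403 read pairs, ES-2 had 1312314, ES indirect had 3302146 and MEF had 474526, and between 5.37% (ES-2) and 49.9% (ES indirect) of lines repeated the coordinates of an earlier line. Such repeats were counted as 1, which left ES-1 with 11853 ends of ribosomal protein genes, ES-2 with 3575, ES indirect with 4764 and MEF with 292. These were 2.69%, 0.859%, 0.438% and 0.125% of all protein-coding ends. In MEF, 50.3% of exonic ends of ribosomal protein genes lay on the sense strand and 53.3% of their sequences matched the stated position, against 94.8% to 98.6% sense in the 3 libraries of ES cells. The MEF values below therefore rest on few ends whose names are uncertain. Of 10 ES cell markers, all had exonic ends in each library of ES cells and 5 had them in MEF (8 ends, with Pou5f1 and Nanog at 0), while all 12 fibroblast markers were seen in MEF and 9, 7 and 11 in ES-1, ES-2 and ES indirect. ES-1 and ES-2 were sequenced on the same 2 flow cells, and ES indirect and MEF on 2 others, so that run and crosslinking cannot be told apart between ES-1 or ES-2 and ES indirect.

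A few stretches of sequence carry the main observations and are shown here. The first is an intronic stretch of Rpl3, which encodes a protein of the large subunit, where most ends of all ribosomal protein genes in ES-1 lay. It spans chr15:79913288-79913350 (mm9, minus strand, 63 nt) in intron 1 of Rpl3, and is written 5′ to 3′ in the direction of the gene with capitals at letters equal to a C box (ATGATGA) and a D box (CTGA).
Rpl3 intron 1: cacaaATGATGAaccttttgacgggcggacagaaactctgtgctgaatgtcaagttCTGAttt
The next is the stretch of intron 3 of Rpl23, another large subunit gene, where the second such accumulation lay (chr11:97641452-97641591, mm9, minus strand, 140 nt).
Rpl23 intron 3: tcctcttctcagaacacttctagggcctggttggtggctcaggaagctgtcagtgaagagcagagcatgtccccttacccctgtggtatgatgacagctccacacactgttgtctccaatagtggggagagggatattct
The last is 1 read pair of ES indirect that the files list as a contact between 2 genes, Gm10073 (RNA1, chr8:109097037-109097126) and Rplp1 (RNA2, chr9:61761148-61761247). Both fragments match the spliced mRNA of Rplp1, a stalk protein of the large subunit, at bases 235 to 324 and 339 to 438 of 495, and capitals mark the 4 bases around an exon junction of that mRNA. The pair was picked for matching the mRNA without a mismatch. RNA1 also matches its stated place at Gm10073 without a mismatch, so its sequence cannot tell the mRNA from that place.
RNA1, named Gm10073: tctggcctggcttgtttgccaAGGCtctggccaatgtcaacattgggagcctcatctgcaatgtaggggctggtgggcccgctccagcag
RNA2, named Rplp1: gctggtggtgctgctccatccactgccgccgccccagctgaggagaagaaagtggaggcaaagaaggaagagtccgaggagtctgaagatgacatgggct

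Where along the genes did the ends fall? By name, exonic ends made up a minority of the sense ends of ribosomal protein genes in ES-1 and ES-2 and most of them in ES indirect. Of sense ends, 2727 of 11617 were exonic for ES-1 (23.5%, interval 22.7 to 24.3), 1321 of 3378 for ES-2 (39.1%, interval 37.5 to 40.8), 3750 of 4532 for ES indirect (82.7%, interval 81.6 to 83.8) and 85 of 157 for MEF (54.1%, interval 46.3 to 61.7). The mean of the ES replicates was 31.3% ± 11.1 (SD, n = 2). All other protein-coding genes had 58.2%, 45.01%, 24.3% and 18.6% exonic sense ends in the same order, so the ribosomal protein genes lay below the rest in ES-1 and ES-2 and above it in ES indirect and MEF. Intronic ends of those other genes lay on the sense strand in 47.1%, 49.1%, 79.5% and 52.0% of cases. Their sequences matched the stated position in 55.6%, 44.2%, 88.0% and 37.7%. Intronic ends of members were sense in 98.8%, 96.5%, 93.5% and 59.0%. In ES-1, ES-2 and MEF many intronic ends of other genes thus have uncertain names, which limits the comparison.

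In ES-1 and ES-2 the order of members and other genes turned on Rpl3. Rpl3 alone held 8185 of 8890 intronic ends for ES-1 (92.1%), 1876 of 2057 for ES-2 (91.2%), 163 of 782 for ES indirect (20.8%) and 54 of 72 for MEF (75.0%). Without Rpl3, an alternative added after seeing the data, the exonic share was 78.9%, 87.7%, 85.3% and 82.4%, and without Rpl3 and Rpl23 it was 94.97%, 93.5%, 85.5% and 82.4%, above the other genes in each library. Rpl3 and Rpl23 were left out for their many intronic ends, so a higher exonic share followed from the choice. No gene was left out of the other genes, where other intronic accumulations stayed in. The uncertain names among intronic ends of other genes limit that comparison too. In ES-1, 81 of the 85 members with sense ends had more exonic than intronic ends, and the 3 with more intronic ends were Rpl3, Rpl23 and Rpl3l. In ES-2 these were Rpl3, Rpl23, Rpl11 (11 exonic and 32 intronic ends) and Rpl17. In ES indirect they were 11 genes, among them Rpl22 (49 exonic, 56 intronic), Rpl24 (32 and 37) and Rps12 (17 and 25). The small subunit genes, which include neither Rpl3 nor Rpl23, had in the same order 94.4%, 96.4%, 87.0% and 89.3% exonic ends, against 16.2%, 27.3%, 79.9% and 46.5% for the large subunit genes.

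**Figure D1:**
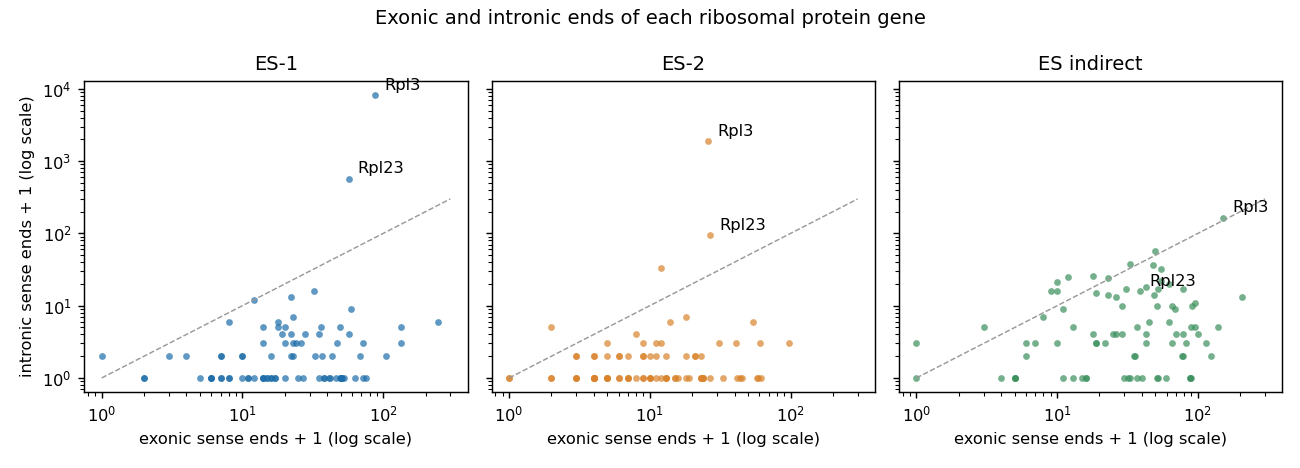
Intronic against exonic sense ends of each of the 85 ribosomal protein genes with GENCODE exons in ES-1, ES-2 and ES indirect, as ends + 1 on log axes; 1 point is 1 gene and the dashed line marks equal numbers. Rpl3 (87 exonic and 8185 intronic ends in ES-1) and Rpl23 (56 and 568) stand above the line in ES-1 and ES-2, where most other genes lie below it.

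Other gene lists place these shares. mRNAs of translation factors and of other genes with a 5′ terminal oligopyrimidine tract, which are translated under the same control as ribosomal protein mRNAs, had 97.6%, 94.1%, 80.4% and 80.3% exonic ends in the same order of libraries. Abundant mRNAs outside translation had 94.7%, 95.8%, 83.6% and 93.2%. The mitochondrial ribosomal protein genes, which are nuclear genes for the ribosome of the organelle, had 46.0%, 22.5%, 36.0% and 32.3%. Once Rpl3 and Rpl23 were left out, the cytoplasmic ribosomal protein genes lay close to the abundant lists in the 3 libraries of ES cells. They then lay above the mitochondrial list in all 4. No gene was left out of the other lists for its intronic ends.

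The edges of the Rpl3 stretch were set at the most frequent RNA1 3′ end and RNA2 5′ end of ES-1 and ES-2 together. Only fragments within these edges, or a few nt beyond, were counted. They were 97.7% and 98.1% of the intronic sense ends of Rpl3 in ES-1 and ES-2. ES-1 had 7993 ends there, ES-2 had 1841, ES indirect had 82 and MEF had 48, or 67.4%, 51.5%, 1.72% and 16.4% of all ends of ribosomal protein genes. Of the RNA1 fragments there, 5223 of 6392 in ES-1 (81.7%) and 1148 of 1311 in ES-2 (87.6%) ended at the same last base, the third after the capital CTGA shown above. Of the RNA2 fragments, 793 of 1601 (49.5%) in ES-1 and 328 of 530 (61.9%) in ES-2 started at the first base shown, and 1465 and 479 within 2 nt of it. In ES indirect 5 of 14 RNA1 fragments and 30 of 68 RNA2 fragments had these same ends, and in MEF 7 of 19 and 8 of 29. In MARIO the RNA1 3′ end and the RNA2 5′ end are the ends joined to the linker. That these ends were most frequent at the edges follows from how the edges were set. The percentages describe how closely the ends gathered there.

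**Figure D2:**
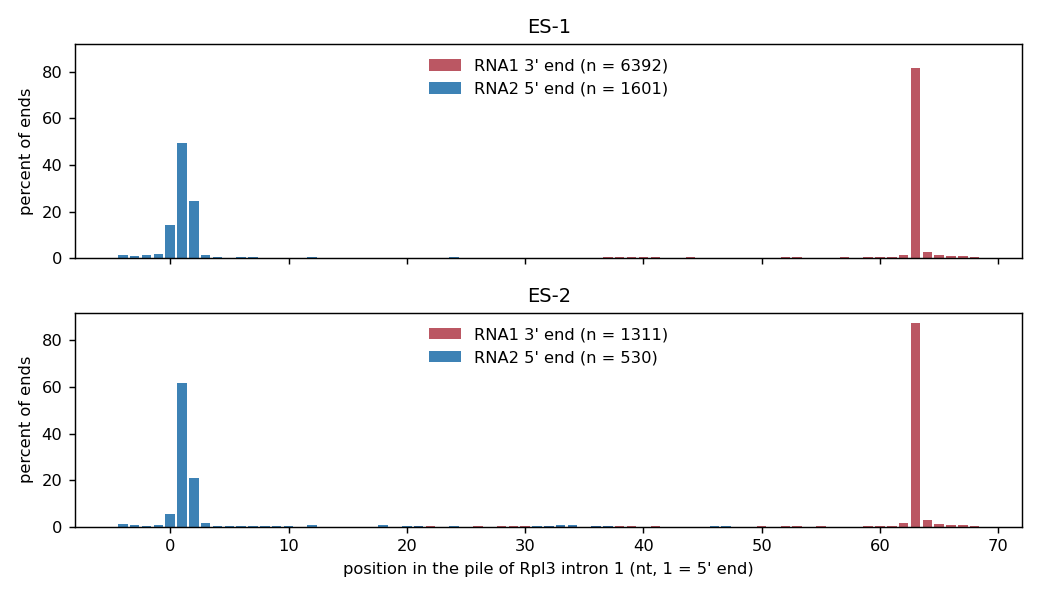
Percent of RNA1 3′ ends (red) and RNA2 5′ ends (blue) at each position of the stretch of Rpl3 intron 1, counted in nt from its 5′ end, in ES-1 and ES-2. The edges of the stretch were set at the most frequent of these ends. RNA1 fragments stopped at base 63 in 81.7% (ES-1) and 87.6% (ES-2) of cases, and RNA2 fragments started at or within 2 nt of base 1 in most.

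No snoRNA of GENCODE vM1 overlaps the stretch, and the files name it Rpl3. The C box letters start at base 6 and the D box letters end 3 bases before the last base, and a further CTGA starts at base 43. Reading all 63-nt windows of the introns of ribosomal protein genes on the gene's strand, 108 of 205519 (0.0525%) had ATGATGA or GTGATGA starting in the first 15 bases and CTGA in the last 14. These windows overlap and take the length of the stretch, which itself has both boxes. The same site can count in several windows, so the share is no rate of chance matches. The RefSeq table of the later assembly GRCm38.p6 lists the box C/D snoRNA Snord43 (48 nt) in Rpl3, starting 5078 bases from the left edge of a gene of 5626 bases. The stretch starts 5077 bases from the left edge of the GENCODE gene, which also has 5626 bases. On the minus strand this left edge is the 3′ end of the gene. By these distances the 48 nt of Snord43 cover only part of the stretch and do not reach the C box letters near its 5′ end. These matches of letters and distances are a description, and the RNA in the stretch was not identified in any other way.

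In the libraries of ES cells most partners of the Rpl3 stretch were rRNA: 70.9% of its ends in ES-1 and 64.4% of those in ES-2, with 57.3% in ES indirect and 31.3% in MEF. In ES-1 and ES-2 the large subunit rRNA made up 72.3% and 74.0% of these rRNA partners and the small subunit rRNA 26.2% and 24.8%. RNA1 ends of the stretch had an rRNA partner in 78.1% (ES-1) and 74.3% (ES-2) of cases, and RNA2 ends in 42.3% and in 212 of 530. Among ends without an rRNA partner, 36.7% in ES-1 and 18.2% in ES-2 had a snoRNA partner, led in ES-1 by the H/ACA snoRNAs Snora81 (71 ends), SNORA4 (44) and SNORA63 (36).

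The Rpl23 stretch held 554 ends in ES-1 and 92 in ES-2, but none in ES indirect or MEF. RNA1 fragments ended at its last base in 207 of 471 cases in ES-1 (43.9%) and 43 of 60 in ES-2 (71.7%), and 67.7% and 46.7% of its ends had an rRNA partner. The edges of this stretch were also set at the most frequent ends. No GENCODE snoRNA overlaps it. Across all protein-coding genes, 76 had a single intronic base with at least 20 RNA1 3′ ends in both ES-1 and ES-2. All protein-coding names seen were 17366 in ES-1 and 16820 in ES-2. Of the 86 and 85 member names seen there, 2 were among the 76, Rpl3 and Rpl23. Rpl3 ranked first by its number of ends.

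Which ribosomal protein mRNAs gave the exonic ends? The number of ends named for a gene had a median over the members with any of 21 in ES-1, of 10 in ES-2 and of 36 in ES indirect, against 5, 3 and 7 over all protein-coding genes. Together the members gave 1.72%, 1.28% and 1.75% of exonic sense ends. Rpl4, a large subunit protein, had 246 exonic ends in ES-1, while ES-2 had 53 and ES indirect 206 of them. Rpl8, at the peptidyl transferase centre of the large subunit, had 133, 97 and 99. Rpl13a, a large subunit protein whose gene hosts several box C/D snoRNAs, had 133, 60 and 138. The small subunit protein Rps3, at the mRNA entry of the ribosome, had 104, 57 and 114.

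Compared per length of exon, the order of genes changed between libraries. In ends named for the gene, Rpl4 had 173.0 per kb in ES-1, 37.3 in ES-2 and 144.9 in ES indirect, Rplp1 had 125.3, 123.2 and 248.5, and Rpl8 had 154.3, 112.5 and 114.8. The medians over 85 genes were 12.8, 6.83 and 21.5 per kb. Over these 85 genes, log2(exonic ends + 1) gave between the ES replicates a Pearson r of 0.83 and a Spearman rho of 0.82, which describes genes that share a cell line and an assay. No member had more than 15 exonic ends in MEF, the number of Rplp2. Exonic ends were at 0 for Rpl3l in ES-1 and ES indirect, for Rpl38 and Rps27l in ES-2, and for Rpl39l in ES indirect, where a count of 0 allows up to 3 ends of the 158738, 103200 and 213747 exonic sense ends of these libraries. Rpl41 had 76, 49 and 123 ends in these libraries with no region given.

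More fragments carried the sequence of these mRNAs than were named as their exons. Every fragment of at least 20 nt was set against the spliced transcripts of the members, whatever name the files gave it, an analysis added after seeing the data. ES-1 had 10718 such sense matches, ES-2 had 4417, ES indirect had 15813 and MEF had 157, and only 2335, 1040, 3021 and 38 of them carried the name of a ribosomal protein gene. The remaining 78.2%, 76.5%, 80.9% and 75.8% had no name or another name. Of those, 48.1%, 36.3%, 59.3% and 26.9% ran across an exon junction of the mRNA, a sequence of spliced transcripts and of their processed copies. Fragments with another name matched the mRNA with the same number of mismatches as their stated place in 77.5%, 81.2%, 69.2% and 66.4% of cases with fewer in 15.5%, 13.03%, 21.9% and 14.3%, and with more in 6.97%, 5.77%, 8.86% and 19.3%. In MEF the stated place was thus the better match more often than the mRNA.

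**Figure D3:**
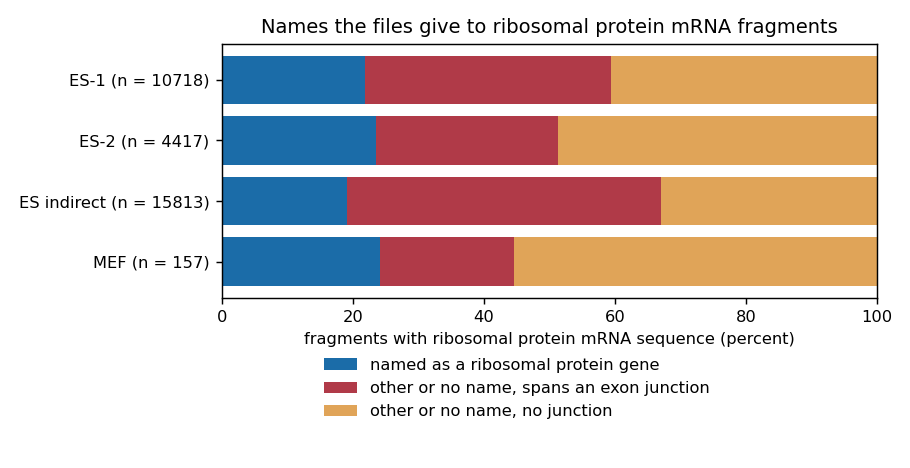
Percent of fragments that match a spliced ribosomal protein mRNA in sense, by the name that the files give them, in the 4 libraries. Fragments named as a ribosomal protein gene (blue) are 2335 of 10718 in ES-1 and 3021 of 15813 in ES indirect, and most others carry another name or none, many of them across an exon junction (red).

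The other names were of several classes. In ES-1, 4269 of these fragments had no annotated gene, 2403 had a protein-coding name and 1407 a pseudogene name. The first in ES indirect were Rplp2-ps1 for Rplp2 (308 fragments, with 81 in ES-1), Gm8730 for Rplp0 (188 and 132) and Gm15710 for Rpl13 (163 and 116), while Gm8730 was the first in ES-1. The named part varied by gene. For Rpl8 it was 121 of 138 fragments for ES-1 (87.7%), 84 of 101 for ES-2 (83.2%) and 86 of 102 for ES indirect (84.3%). For Rps2, a small subunit protein, it was 34 of 552 (6.16%), 16 of 218 (7.34%) and 74 of 816 (9.07%). The median over genes with at least 30 fragments was 15.97% (78 genes), 18.03% (57 genes) and 15.6% (78 genes). By sequence Rps2 had the most fragments in each library of ES cells, while by name it was not among the first 10 genes. Rpl7l1 drew 142 of its 411 fragments in ES indirect from fragments that the files name as SINE repeats. The agreement of ES-1 and ES-2 over the 85 genes was r = 0.94 and rho = 0.88 by sequence.

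Positions along the spliced mRNAs were counted only for fragments whose whole length matched a transcript without gaps. Fragments running past either end were left out, which can lower the first and last bins. Dividing each mRNA into 10 bins of equal length from its 5′ end, bin 4 held 15.0% of fragments in ES-1 and 14.3% in ES-2, while bin 5 held 13.6% in ES indirect. The last bin held 4.23%, 3.46% and 3.78%, and how much of this low share comes from that rule was not tested.

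Did ribosomal protein mRNAs contact rRNA more often than other mRNAs? Their share of exonic ends with an rRNA partner was close to that of other genes in each library of ES cells. It was 1417 of 2727 for ES-1 (52.0%, interval 50.1 to 53.8), 660 of 1321 for ES-2 (49.96%, interval 47.3 to 52.7), 869 of 3750 for ES indirect (23.2%, interval 21.9 to 24.5) and 9 of 85 for MEF (10.6%, interval 5.67 to 18.9), with a mean of 51.0% ± 1.41 (SD, n = 2) over the ES replicates. The other protein-coding genes had 50.7%, 52.8%, 24.1% and 20.2%. Exonic ends of those other genes lay on the sense strand in 84.6%, 66.7%, 88.2% and 55.3% of cases. Their sequences matched the stated position in 80.5%, 57.3%, 93.6% and 36.2%. Many exonic ends of other genes thus have uncertain names, most of all in ES-2 and MEF. This limits the comparison and the tests of each gene below, which use the same ends. By sequence the members' share was 49.6%, 49.8%, 22.2% and 14.6%. The large subunit and small subunit genes had 51.9% and 52.0% in ES-1, 48.5% and 52.0% in ES-2, with 21.5% and 25.5% in ES indirect. Large subunit rRNA was 67.0%, 69.5% and 44.9% of the members' rRNA partners and 65.8%, 71.1% and 48.01% of those of other genes. In ES indirect a further 39.2% of the members' rRNA partners were named Rn45s, the precursor that holds the rRNA of both subunits, with 38.7% in other genes, so the large subunit share there is not comparable with that of ES-1 and ES-2. The share depended on the side of the linker. RNA1 ends of members had an rRNA partner in 71.8% of cases in ES-1 and 70.9% in ES-2. For RNA2 ends it was 37.3% and 35.8%.

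Each gene with at least 10 exonic ends was set against all other protein-coding genes by a two-sided Fisher's exact test with Benjamini-Hochberg adjustment over all genes tested. In ES-1, 0 of 66 members passed an adjusted p of 0.05, where 1.86% of all genes tested passed, and 9 members had an unadjusted p under 0.05, as did 12% of all genes tested. In ES-2, 0 of 42 passed (4.39% of all genes), with 2 at an unadjusted p under 0.05 (14.3% of all genes). Required in the same direction in both, 0 of 40 passed (0.965% of all genes). The median share over members was 50.6% in ES-1, and in ES-2 it equalled the median over all genes tested.

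Of the 12 members with at least 30 exonic ends in ES-1 and in ES-2, those with high mean shares included Rpl32 (66.7% and 53.3%), Rps20 (61.2% and 55.2%) and Rps3 (58.7% and 54.4%). The lowest belonged to Rpl4 (47.2% and 43.4%), Rps18 (43.8% and 53.1%), Rplp2 (54.8% and 43.2%), Rpl8 (60.2% and 43.3%) and Rplp0 (37 of 74 ends and 22 of 41), the last being the stalk base of the large subunit. Rplp1, between these, had 64.5% in ES-1 but 42.6% in ES-2, and Rpl8 also changed places between the replicates.

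**Figure D4:**
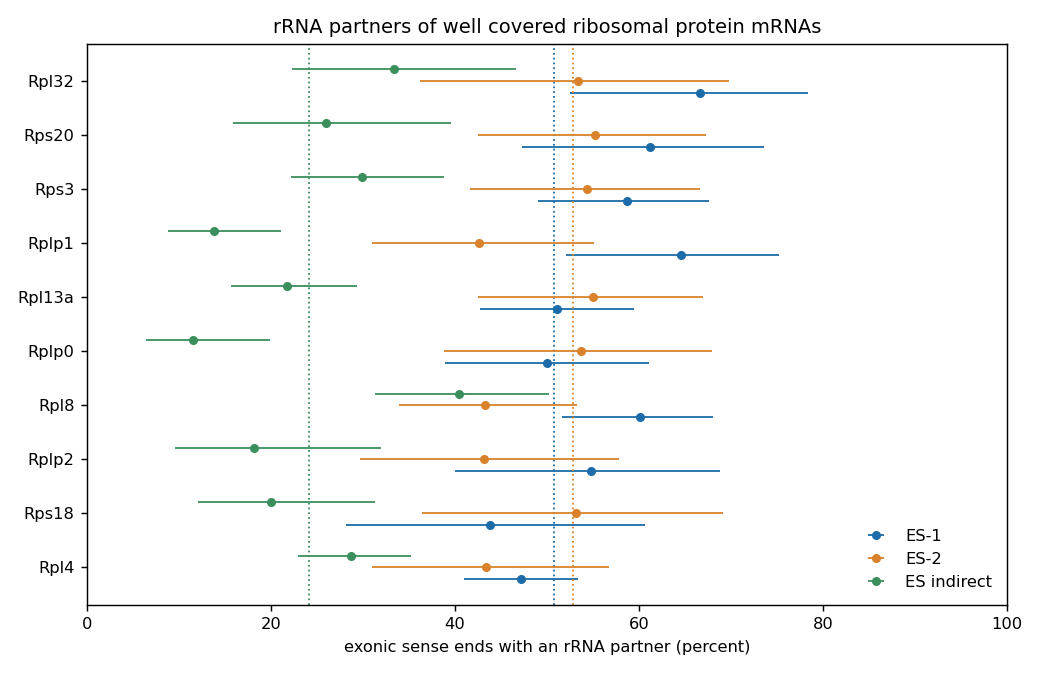
Percent of exonic sense ends with an rRNA partner for 10 of the 12 ribosomal protein genes with at least 30 such ends in both ES-1 and ES-2, with 95% Wilson intervals; dotted lines give all other protein-coding genes in the same library. ES-1 and ES-2 points lie between 42.6% (Rplp1 in ES-2) and 66.7% (Rpl32 in ES-1), and the ES indirect points lie lower, at most at 40.4% (Rpl8).

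In ES indirect 5 of 70 members passed, where 3.18% of all genes passed, and 19 had an unadjusted p under 0.05, as did 16% of all genes. The median was 21.4% over members and 21.6% over all genes tested. Rpl8 had an rRNA partner in 40 of 99 ends (40.4%, adjusted p = 0.0151, Fisher's exact test) and Rpl15, also of the large subunit, in 13 of 24 (54.2%, adjusted p = 0.0467), against 24.1% in the rest. Rps2 had 6 of 82 (7.32%, adjusted p = 0.00755, Fisher's exact test), and Rpl36, a small protein of the large subunit, had 0 of 35 (adjusted p = 0.00564), which allows up to 8.57%. These calls changed with the counting of repeated lines. With every line counted the members' share in ES indirect was 13.8%, and 27 of 74 members passed, where 18.6% of all genes passed, and Rps2 was not among them. Within a flow cell the share was 18.8% and 29.0%, and 1 member passed in each, where 2.89% and 1.99% of all genes passed, Rps2 being that of the second. Each flow cell holds only part of the ends. Rpl8 had an rRNA partner in 14 of 46 ends of the first flow cell and 26 of 53 of the second, Rpl15 in 7 of 13 and 6 of 11, and Rps2 in 3 of 39 and 3 of 43.

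Contacts with snoRNAs were asked of exonic ends that had no rRNA partner. Members had a snoRNA partner in 553 of 1310 such ends for ES-1 (42.2%, interval 39.6 to 44.9), 124 of 661 for ES-2 (18.8%, interval 15.97 to 21.9), 50 of 2881 for ES indirect (1.74%, interval 1.32 to 2.28) and 4 of 76 for MEF (5.26%, interval 2.07 to 12.8). The other protein-coding genes had 40.2%, 21.0%, 0.797% and 6.24%. The uncertain names among exonic ends of those other genes limit this comparison as well. The mean over the ES replicates was 30.5% ± 16.6 (SD, n = 2), so that the replicates differed from each other by far more than members from other genes. In ES-1, 0 of 44 members passed Fisher's exact test after adjustment, where 2.12% of all genes passed, and 3 had an unadjusted p under 0.05 (11.3% of all genes). In ES-2, 0 of 23 passed (0.651% of all genes), with 0 at an unadjusted p under 0.05 (7.6% of all genes), and 0 of 23 passed in both (0.508% of all genes).

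The snoRNA partners were spread over many species. In ES-1 they were 125 different snoRNAs, led by the H/ACA snoRNAs Snora81 (36 of 553 ends, 6.51%) and SNORA63 (33, 5.97%), which were also the first in other protein-coding genes (6.43% and 5.19%). In ES-2 the first was SNORA48 with 10 of 124 ends. Of the members, 30 host 58 GENCODE snoRNAs. In ES-1 13 of the 553 partners were snoRNAs of the same gene, and in ES-2 4 of the 124. The number that the totals predict was not counted. Host and non-host members had a snoRNA partner in 41.3% and 43.1% of ends in ES-1 and in 16.8% and 20.3% in ES-2. snoRNAs encoded within members made up 22.4% of all snoRNA ends in ES-1 and 21.9% in ES-2, led by Snora33 of Rps12 (32605 and 8773 ends).

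In ES indirect snoRNAs of the same gene made up more of the snoRNA partners. There, 1 of 66 members passed, where 0.24% of all genes passed: Rpl13a had a snoRNA partner in 17 of 108 ends (15.7%), against 0.804% in the rest (adjusted p = 1.7e-13, Fisher's exact test). All 17 were snoRNAs of its own introns, the box C/D snoRNAs Snord33 (8 ends), Snord34 (8) and Snord35a (1). The exonic fragment and the snoRNA were close on the genome, with a median distance of 11.5 bp for Snord33, and they overlapped by a median of 8.5 bp for Snord34. Over all members, 29 of 50 snoRNA partners were snoRNAs of the same gene, and hosts had a snoRNA partner in 44 of 1281 ends (3.43%) against 6 of 1600 (0.375%) in non-hosts. In ES-1, 9 of the 35 snoRNA partners of Rpl13a were its own. There the exonic fragment and the snoRNA overlapped by a median of 29 bp for Snord33 (4 ends) and 27 bp for Snord34 (5). Rpl13a passed in the first flow cell of ES indirect and not in the second, and by sequence the members' snoRNA share in ES indirect was 0.772%.

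Pairs in which an exonic end had its partner on the same ribosomal protein gene were the next comparison. By name they were 47 of 1264 read pairs without rRNA for ES-1 (3.72%, interval 2.81 to 4.91), 8 of 653 for ES-2 (1.23%, interval 0.622 to 2.40), 443 of 2479 for ES indirect (17.9%, interval 16.4 to 19.4) and 8 of 76 for MEF (10.5%, interval 5.43 to 19.4). Both fragments lay on the gene's strand in all of these pairs in the 3 libraries of ES cells and in 0 of the 8 of MEF, so that the MEF value is no share of pairs within an mRNA. The mean over the ES replicates was 2.47% ± 1.76 (SD, n = 2). Other protein-coding genes had 10.9%, 3.52%, 48.9% and 4.33%, above the members in each library of ES cells. In those libraries 78.2%, 76.5% and 80.9% of fragments with member mRNA sequence had another name or none. Pairs within 1 member mRNA can thus be missed by name, which limits this comparison. The genes with the most such pairs by name were Rpl4 (7, 1 and 27 in ES-1, ES-2 and ES indirect), Rps4y2 (3, 0 and 22), an intronless copy of the small subunit gene Rps4, Rpl14 (5, 0 and 19), Rpl13a (3, 0 and 16) and Rps19 (0, 1 and 15).

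By sequence the share was larger: 492 of 4902 read pairs for ES-1 (10.04%), 59 of 2152 for ES-2 (2.74%) and 4422 of 7861 for ES indirect (56.3%), with 0 of 134 for MEF, which allows up to 2.24%. The values of other genes were not recounted by sequence, so the 2 counts are not compared with them. Rps2 led in ES indirect with 300 pairs, followed by Rpl3 (219) and Rps6 (174), the latter a small subunit protein phosphorylated by the Rps6k kinases. By sequence 10, 7 and 18 read pairs joined mRNAs of different members in ES-1, ES-2 and ES indirect (0.204%, 0.325% and 0.229%). The number that the totals predict was not counted.

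The order of the ends along the mRNA differed between libraries, also between the ES replicates. In ES-1, 312 of the 492 pairs overlapped, 144 had RNA2 downstream of RNA1 and 36 upstream, and in ES-2 the numbers were 28, 15 and 16 of 59. In ES indirect 2504 of 4422 had RNA2 downstream, 1371 overlapped and 547 had it upstream. The downstream pairs lay close together, with a median gap of 30 nt in ES-1, a gap of 15 nt in ES-2 and a gap of 18 nt in ES indirect, and 2426 of the 2504 in ES indirect were under 200 nt apart. RNA1 followed downstream by RNA2 at a short distance is also the order that 1 uncut molecule would give, and whether these were cut was not tested. Counting by name only pairs with RNA2 upstream, on the other strand or over 2000 bp away, which leaves out overlapping pairs too, gave 0.467% in the ES replicates and 2.86% in ES indirect.

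**Figure D5:**
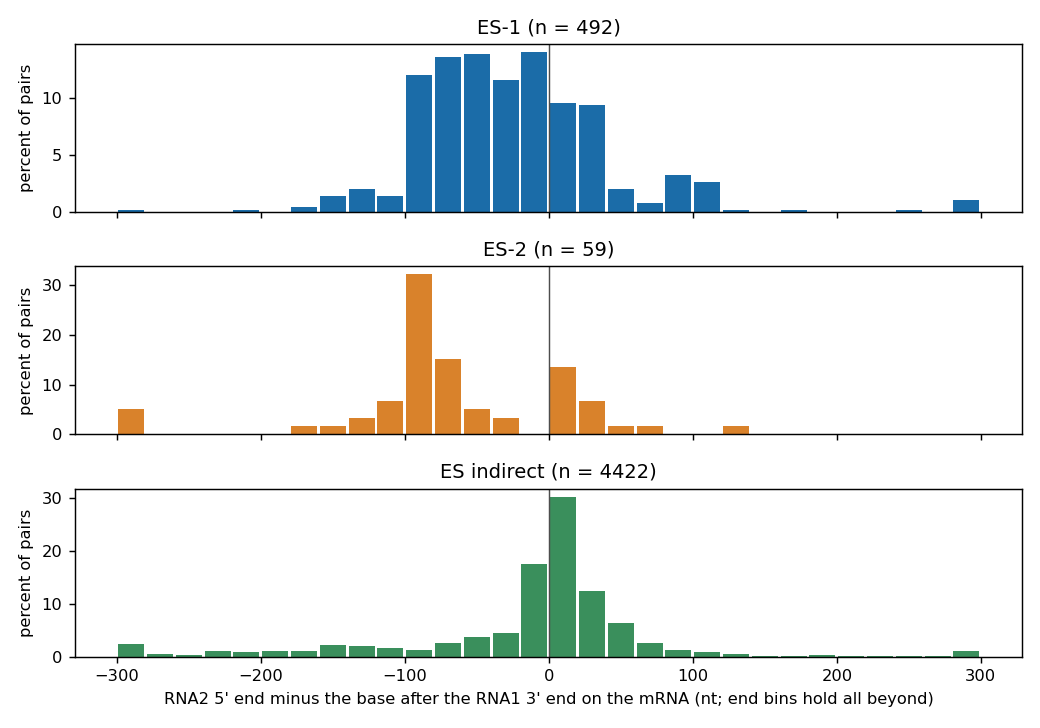
Distance on the spliced mRNA from the RNA1 3′ end to the RNA2 5′ end, in bins of 20 nt, for read pairs with both ends on 1 ribosomal protein mRNA by sequence, as percent of pairs in ES-1 (492), ES-2 (59) and ES indirect (4422). ES indirect peaks in the bin from 0 to 19 nt (30.1%), just downstream of RNA1, while ES-1 is spread over overlapping fragments with negative distances.

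Which other RNAs were partners of the members more often than their totals predict? Only read pairs with both RNAs named and neither of them rRNA were used, so rRNA was not tested as a partner here. Pairs of different RNAs more than 2000 bp apart were tested by a one-sided Fisher's exact test with Benjamini-Hochberg adjustment, asking for an adjusted p under 0.05 and at least 3 read pairs. In ES-1, 12 of 1870 observed pairs with a member passed (0.642%), where 1.09% of all pairs did. In ES-2, 1 of 966 passed (0.104%), where 0.719% of all did. In ES indirect 71 of 941 passed (7.55%), where 2.54% of all did, and in MEF 1 of 157 (0.637%), where 0.842% of all did. Of 175 pairs with a member that were observed in both ES-1 and ES-2, 0 passed in both, where 1.38% of all such pairs did.

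Most called pairs of ES indirect had both fragments matching the member's own spliced mRNA, a count added after seeing the data. This held for 430 of the 512 read pairs in them (84.0%), and 62 of the 71 pairs had it in most of their read pairs. Fragments with another name can match their stated place equally well, so these matches do not settle where they arose. Rplp1 with Gm10073 was the first, with 26 read pairs of which 24 matched Rplp1 mRNA with both fragments, and the pair of sequences shown above is 1 of them. Next came Rpl3 with Gm5879 (22 of 23), Rplp0 with Gm8730 (20 of 21), Rplp2 with Rplp2-ps1 (20 of 20) and Rpsa with Rpsa-ps10 (18 of 18), Rpsa being the laminin receptor and a small subunit protein. Of the 6 pairs with no read pair of this kind, 3 joined Rpl41 to Gm10076, Gm10736 and Gm10180 and could not be tested, since Rpl41 has no GENCODE transcript here. The others were Rpl13a with the lincRNA 6720401G13Rik (4 read pairs), Rpl12 with the spliceosomal U1 RNA (3) and Rplp1 with an (A)n repeat (3).

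In ES-1 the 12 called pairs fell into 3 kinds. Of these, 4 were of Rpl3, with the repeats RLTR4_MM-int (6 read pairs), RMER5 (4) and MuRRS-int (3) and with Mrpl53 (4), and all their Rpl3 ends were intronic. Mrpl53 and MuRRS-int had partner fragments with a median of 16.5 and 17 nt. The pairs Rpl14 with Rpl14-ps1 (5), Rplp0 with Gm8730 (5), Rps3a with Gm9000 (4) and Rpl6 with Gm5428 (3) had most read pairs matching the member's own mRNA, and these 4 were also called in ES indirect. They are 4 of the 12 member pairs called in ES-1 and 4 of the 71 called in ES indirect, where 12.5% and 5.1% of all called pairs were called in the other library. The remaining ones were Rpl13a with SNORA63 (5 read pairs, adjusted p = 0.0192 by the one-sided Fisher's exact test), Rpl4 with Snora7a (3), Rpl8 with snoU97 (3) and Rps9, a small subunit protein, with MMETn-int (3, partner fragments of 18 nt). The only called pair of ES-2, Rpl3 with Cxadr (4 read pairs), also had intronic Rpl3 ends. That of MEF was Rpl39 with an L1M4 repeat (3).

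Few read pairs named different ribosomal protein genes, and most of these had an intronic end. The number that the totals of the members predict was not counted. The intronic stretch of Rpl3 alone held 67.4% of member ends in ES-1 and 51.5% in ES-2. By name and in any region, ES-1 had 10 pairs of members (11 read pairs), ES-2 had 2, ES indirect had 1 and MEF had none, and none was called. At least 1 end was intronic in 10 of the 11 read pairs of ES-1, in both of ES-2 and in that of ES indirect, and 8 of the 11 in ES-1 held Rpl3 or Rpl23. Rpl23 with Rpl3 was the only pair seen in both ES-1 (2 read pairs) and ES-2 (1).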

How the data were processed

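The MARIO libraries of ES cells (ES-1, ES-2 and ES indirect) and of fibroblasts (MEF) were used, and the brain libraries of the series were not analysed here. The deposited tables list read pairs and no measurements: a row gives position, strand, sequence, type, name and region of RNA1 and of RNA2 (unit: other). By their methods, the authors removed duplicates by position and random barcode, divided read pairs at the linker and kept fragments with a unique place in mm9. The submitters' processing notes name TopHat2 2.1.1, with no role given. The counts here were made by counting lines, with lines of equal coordinates and strand of both fragments taken as 1.

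Ends were kept on the sense strand, taken as the stated strand for RNA1 and the opposite strand for RNA2. Exonic means exon or UTR. Fragments of at least 20 nt were also matched to the spliced GENCODE vM1 transcripts of members with up to 5% mismatches, and to the stated place in NCBIM37 with up to 15%. Shares have 95% Wilson intervals. Fisher's exact tests (scipy 1.17.1) were adjusted by Benjamini-Hochberg over all genes with at least 10 ends, or over all observed pairs of named RNAs other than rRNA, and checked on simulated data. Python 3.11.15, pandas 2.3.3 and numpy 2.4.6 were used. Total depth was 474526 to 3302146 read pairs per library.

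The genes named in the text are the 10 with the most exonic ends over both ES libraries, the 5 highest and 5 lowest in rRNA share, the 10 with the most within-RNA pairs, and every gene or pair called. Genes outside these rules were named after their values were seen. Some genes that these rules name are not reported here. Members and lists were chosen with earlier results of these data known. Alternatives counted every line, kept sequences at the stated place, kept fragments of at least 20 nt, took 1 side of the linker, 1 flow cell or both strands, raised the minimum of ends to 30, or changed the minimum of read pairs to 2 or 5.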

Additional observations from a re-analysis of the deposited data

How the results depend on the processing

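The exonic share of the ES replicates (31.3%) was 20.5% over RNA1 ends, 51.3% over RNA2 ends, 83.3% without Rpl3 and 94.2% without Rpl3 and Rpl23, and 23.5% to 39.1% with either replicate left out. Their rRNA partner share (51.0%) was 47.6% with every line counted, 55.0% with both fragments of at least 20 nt, 71.4% over RNA1 ends, 36.5% over RNA2 ends and 49.4% and 52.4% in the flow cells, and 49.96% to 52.0% with either replicate left out. The snoRNA share (30.5%) stayed within the spread of the replicates and ranged from 18.8% to 42.2% with either left out. The within-RNA share (2.47%) was 9.64% over RNA1 ends, 0.467% for pairs with RNA2 upstream, on the other strand or over 2000 bp away and 6.39% by sequence, and 1.23% to 3.72% with either replicate left out. In ES indirect the members called for rRNA partners (5) were 8 with at least 30 ends (11.1% of all genes passing), 27 with every line counted (18.6%), 1 over RNA1 ends (3.12%), 2 over RNA2 ends (1.79%) and 1 in each flow cell (2.89% and 1.99%). Those called for snoRNA partners (1) were 2 with at least 30 ends (0.507%), over RNA1 ends (0.305%) or in flow cell 1 (0.124%), 5 with every line counted (0.839%) and 0 in flow cell 2, where no gene passed.

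Called pairs in ES-1 (12) were 180 with every line counted (10.5% of all pairs passing), 5 and 3 in the flow cells (0.884% and 0.755%), 52 with at least 2 read pairs (2.84%) and 4 with at least 5 (0.445%). In ES-2 (1) they were 8 with every line counted (1.27%), 13 with at least 2 read pairs (1.83%), and 0 with at least 5 (0.313%) or with sequences at the stated place (0.853%). In ES indirect (71) they were 143 with every line counted (6.81%), 39 and 28 in the flow cells (2.48% and 2.06%), 110 with at least 2 read pairs (5.14%), 38 with at least 5 (1.28%) and 9 without pairs of 1 spliced mRNA. In MEF (1) they were 3 with every line counted (2.88%) or at least 2 read pairs (2.43%), and 0 with at least 5 read pairs (0.279%), with fragments of at least 20 nt (0.731%), with sequences at the stated place (0.673%) or in flow cell 1 (0.564%). Pairs called in both ES libraries (0) were 1 to 12 when only 1 of them was asked for. The causes were not tested, except that alternatives on 1 flow cell, side or higher minimum use fewer read pairs. Without Rpl3 the exonic share of ES-1 and of ES-2 moved from below to above that of other genes. Rpl3 was left out for its intronic ends, while none of the other genes was. Intronic ends of other genes often have uncertain names there. Depth limits MEF most, where only 1 member had at least 10 exonic ends. No paired analysis was possible, because nothing in the labels pairs a library of ES with ES indirect or MEF. Replicate numbers only count libraries within a group, and brain was not used.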
